A study of Mus musculus with 48 samples.

Results

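The comparison of control mice at 72 h with control mice at 0 h followed hippocampal (HPC) gene expression over the days after a last stay in an inhalation chamber that delivered air and no ethanol. It rested on 12 of the 48 arrays of the series, 1 array per mouse, with 6 mice killed at 72 h and 6 killed at 0 h, selected by their labels. All 12 were adult male C57BL/6J mice that had been through 4 cycles of 16 h a day for 4 days in the air chamber, with 7 days out of it between cycles, and they were killed 0 h or 72 h after the last session. These control (Ctrl) mice carried no altered gene, and both groups had been injected with saline and with pyrazole, the inhibitor of alcohol dehydrogenase, at 1 mmol/kg before each cycle. The remaining arrays came from control mice killed at 8 h and 7 d and from mice given chronic intermittent ethanol (CIE) by vapor (10 to 13 mg per litre), which were injected with ethanol at 1.6 g/kg and the same dose of pyrazole before each cycle and were killed at the same 4 times. The labels give the hours since the last session, and neither they nor the methods give the clock time of the harvest. The end of the chamber stay and the time since pyrazole and handling cannot be told apart in this comparison. Both 72 h and 7 d are whole numbers of days, so by the labels only the 8 h harvest falls at another hour of day. That holds if the last session of every mouse ended at the same hour, which is not stated.

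The hippocampus holds the pyramidal neurons of CA1 and CA3, the granule neurons of the dentate gyrus, interneurons, glia and vessels, and a dissected block also carries RNA of neighbouring tissue. Several gene programs in it move within hours. Neuronal activity and handling induce Fos and related immediate early genes, corticosterone induces targets of the glucocorticoid receptor, and the circadian clock drives daily waves of Dbp and Nr1d1. The chaperones of the endoplasmic reticulum (ER), which fold secreted and membrane proteins, are transcribed together when unfolded protein accumulates. In a whole-tissue sample, a change in RNA per cell and a change in the number of cells of a type cannot be told apart.

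Values are log2 expression levels of probe sets, each a group of short probes for 1 transcript, so a difference of 1 is a doubling. The medians of the 12 arrays lay between 6.601 and 6.627, and pairs of these arrays correlated at 0.984 to 0.997 over the probe sets, which is a description and not a test. The Ctrl 0 h arrays resembled each other less than the Ctrl 72 h arrays did: their mean correlations within the group were 0.989 to 0.993 against 0.994 to 0.996. Ctrl 0 h mice 2, 12 and 20 stood apart in markers of tissue next to the hippocampus. Their levels of Shox2, a transcription factor of thalamus and habenula, were 7.98, 6.35 and 6.44, against 3.86 to 4.48 in the other 3 Ctrl 0 h mice and 3.91 to 4.36 in the Ctrl 72 h mice. The choroid plexus factor Otx2 spanned 3.51 to 7.23 at 0 h and 3.43 to 4.09 at 72 h. The mean over choroid plexus genes did not share this spread, though single members varied. The mean of 17 choroid plexus and ependyma genes ran from 5.43 to 5.65 per mouse at 0 h and from 5.39 to 5.72 at 72 h. Within the array sets given with the methods, the 72 h minus 0 h difference of the choroid plexus marker Ttr ran from -2.04 to 0.91. An even choroid plexus content was therefore not shown. The markers of the labelled tissue were present in every mouse, with Wfs1 of CA1 at 10.00 to 11.29 at 0 h and 10.18 to 11.27 at 72 h, and Prox1 of the dentate gyrus at 8.46 to 10.17 and 7.88 to 9.47.

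Between 0 h and 72 h, 375 of 45037 probe sets passed an adjusted p of 0.01 (limma, Benjamini-Hochberg), which is 0.833% of those tested: 95 were higher at 72 h (0.211%) and 280 were lower (0.622%). Counted with 1 probe set for each of 18193 genes, 83 genes passed (0.456%), 61 higher (0.335%) and 22 lower (0.121%). Most of the changes were small. The genes called higher rose 1.10-fold to 2.96-fold (median 1.25-fold) and those called lower fell 1.17-fold to 2.23-fold (median 1.40-fold). The 6 and 6 mice did not overlap for 38 of the 61 higher genes and 15 of the 22 lower genes, while over all genes, called or not, 1.21% had groups that did not overlap (0.962% higher, 0.247% lower). The median difference over all genes was 0.05, so the level of a typical gene was slightly higher at 72 h. These counts depended on single mice. The number of called probe sets was 79 without Ctrl 0 h mouse 2, 92 without Ctrl 72 h mouse 16 and 871 without Ctrl 0 h mouse 38, and it was 109, 113, 150, 171 and 193 without Ctrl 72 h mouse 6, Ctrl 72 h mouse 44, Ctrl 0 h mouse 56, Ctrl 72 h mouse 68 and Ctrl 0 h mouse 20. With array sets recovered from the values as a block, 42 probe sets and 17 genes were called. Without the 3 Ctrl 0 h mice high in Shox2, a setting added after the data were seen, 20 probe sets and 10 genes were called.

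Of the 83 genes, 23 stayed called whichever of the 12 mice was left out, and 15 of these also stayed called with the array sets as a block. The 8 that were higher at 72 h were Gm11627, Fzd2, Gpr17, Ccl5, Gli3, Mgat5, Susd5 and Tnfaip2. The 7 that were lower were Manf, Hsp90b1, Hspa5, Aox1, Etnppl, Morc2b and 2610024D14Rik. Without the 3 Ctrl 0 h mice high in Shox2, 7 of the 15 stayed called, namely Gm11627, Fzd2, Gpr17, Ccl5, Susd5, Manf and Hsp90b1. The fit of the 24 control arrays alone kept 7 of the 83 calls, 4 higher and 3 lower. Not all of the 15 therefore stayed called in that fit. Each of the 83 kept its direction in every setting that used the same probe set. At an unadjusted p under 0.05, 14.3% of all genes were higher and 2.9% lower, and 70.6% of all genes had a difference above 0. The counts at that p given for gene lists are to be read against these shares. Counts of called list members are to be read against the 0.335% of genes called higher and 0.121% called lower. Mgat5, Susd5, Ssr3, Rnase1 and Prex1 are named here after their values were seen, as are the uncalled Sdf2l1, Pdia6, Chac1 and Xbp1. The other genes given with expression values follow the rule given with the methods.

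**Figure D1:**
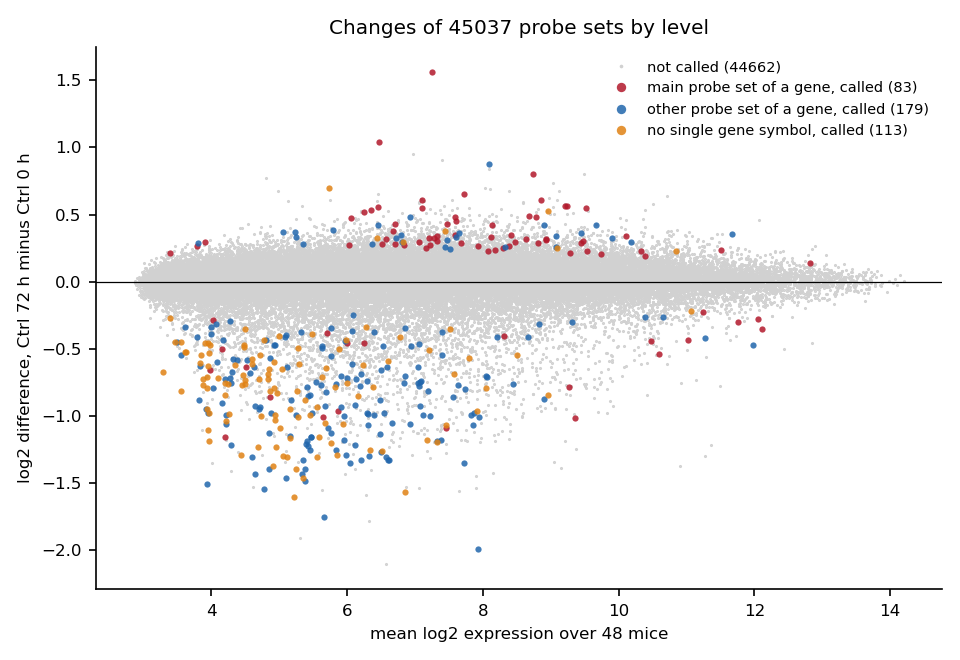
Log2 change from Ctrl 0 h to Ctrl 72 h (vertical axis) against the mean log2 level over the 48 arrays (horizontal axis) for 45037 probe sets, with called probe sets coloured by whether they stand for a gene, are another probe set of a gene, or have no single symbol. The 280 probe sets called lower had a median level of 5.48, dimmer than the 7.60 of the 95 called higher and the 6.62 of all probe sets.

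The lower genes included a group of abundant ER chaperones. Of 28 measured chaperones and folding factors of the ER, 4 were called lower and 0 higher, against 0.121% and 0.335% of all genes. The median difference was -0.06 over the list and 0.05 over all genes. Promoters of the called chaperones are shown first, since 3 of the 4 carry the ER stress element, the site at which ATF6 and NF-Y drive these genes. The element was searched with values known, as the letters CCAAT and CCACG with 9 bases between them, on both strands of the window from 250 bases before to 50 bases after the start, and it occurred in 39 of 32851 RefSeq promoters (0.119%). It was present in 8 of the 25 list members with a promoter entry: Calr, Canx, Creld2, Dnajc3, Hsp90b1, Hspa5, Pdia6 and Syvn1. A match is a description of the sequence and not evidence of binding. The 220 bases before each start are printed 5′ to 3′ on the gene's strand (RefSeq, GRCm38.p6), with the element in capitals, at chr2:34771870-34772089 (+) for Hspa5, chr10:86705445-86705664 (-) for Hsp90b1 and chr8:84846932-84847151 (-) for Calr. 
Hspa5: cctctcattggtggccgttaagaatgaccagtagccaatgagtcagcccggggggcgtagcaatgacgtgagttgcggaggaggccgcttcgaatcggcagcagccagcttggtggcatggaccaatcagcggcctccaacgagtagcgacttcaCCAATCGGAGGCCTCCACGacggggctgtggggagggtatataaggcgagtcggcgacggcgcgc
Hsp90b1: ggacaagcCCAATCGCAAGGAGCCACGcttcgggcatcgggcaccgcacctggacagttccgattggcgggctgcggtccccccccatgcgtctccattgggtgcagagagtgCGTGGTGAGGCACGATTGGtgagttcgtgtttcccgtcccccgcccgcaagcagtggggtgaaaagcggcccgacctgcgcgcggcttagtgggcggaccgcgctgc
Calr: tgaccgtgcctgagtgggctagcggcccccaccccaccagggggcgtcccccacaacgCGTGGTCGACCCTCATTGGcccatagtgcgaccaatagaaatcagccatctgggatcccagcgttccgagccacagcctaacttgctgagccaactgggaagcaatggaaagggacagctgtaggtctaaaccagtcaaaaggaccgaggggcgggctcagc
Counted from the start, the element lay at -65 to -47 in Hspa5 and at -162 to -144 in Calr, and Hsp90b1 held it at -212 to -194 and at -107 to -89. Manf had no entry.

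Manf, a secreted factor kept in the ER until calcium falls, ranged from 10.52 to 10.89 (median 10.62) at 0 h and from 10.09 to 10.26 (median 10.21) at 72 h. Every 72 h mouse lay below every 0 h mouse. The mean fell from 10.64 ± 0.13 to 10.20 ± 0.07 (SD, n = 6 each), a difference of -0.44 (SE 0.06, adjusted p = 2.85e-05, 1.36-fold lower). Hspa5 (BiP), the main Hsp70 chaperone of the ER lumen, was at 12.10 to 12.33 (median 12.23) and then at 11.80 to 12.00 (median 11.86), again with no overlap. It differed by -0.35 (SE 0.07, adjusted p = 0.002), with a further called probe set at -0.42 and another, not called, at 0.11. Hsp90b1 (Grp94), the ER member of the Hsp90 family, ranged from 11.71 to 12.08 (median 11.84) at 0 h and from 11.47 to 11.61 (median 11.55) at 72 h. The groups did not overlap, and the difference was -0.30 (SE 0.05, adjusted p = 0.00122). Calreticulin (Calr), a calcium-binding lectin chaperone, went from 11.98 to 12.21 (median 12.08) to 11.73 to 11.94 (median 11.80), without overlap. Its difference of -0.28 (SE 0.05, adjusted p = 0.00342) was carried by 2 further called probe sets at -0.26 each, but its adjusted p rose to 0.0127 without Ctrl 72 h mouse 6, to 0.0104 without Ctrl 72 h mouse 68 and to 0.0229 with the array sets as a block. Without the 3 Ctrl 0 h mice high in Shox2, 2 of the 4 chaperones stayed called, and Hspa5 and Calr had adjusted p-values of 0.0321 and 0.0816.

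The fall of the chaperones was not detected in the control mice killed at 8 h. Relative to the same 0 h mice, Manf differed by -0.06 at 8 h (adjusted p = 0.662) and by -0.41 at 7 d (adjusted p = 4.41e-05), and Hspa5 by 0.09 at 8 h and -0.29 at 7 d (adjusted p = 0.0206). These comparisons share the 0 h mice with the one at 72 h, and they called 505 (1.12%) and 95 (0.211%) probe sets. Other members did not pass. Sdf2l1, a partner of ER Hsp40 proteins, differed by -0.41 (adjusted p = 0.0106), the disulfide isomerase Pdia6 by -0.29 (adjusted p = 0.0137), and Chac1, a glutathione-degrading target of the ATF4 arm, by 0.45 (adjusted p = 0.0116). Xbp1, the transcription factor that is spliced in the unfolded protein response, differed by -0.08 (adjusted p = 0.407). At an unadjusted p under 0.05, 10 of the 28 members were lower and 1 was higher, against 2.9% and 14.3% of all genes. The 28 members averaged 10.06 to 10.18 per mouse at 0 h and 9.99 to 10.06 at 72 h. Ssr3, a subunit of the translocon-associated complex through which proteins enter the ER, was also lower, by -0.23 (adjusted p = 0.0084), but it lost the call without 11 of the 12 mice taken one at a time.

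**Figure D2:**
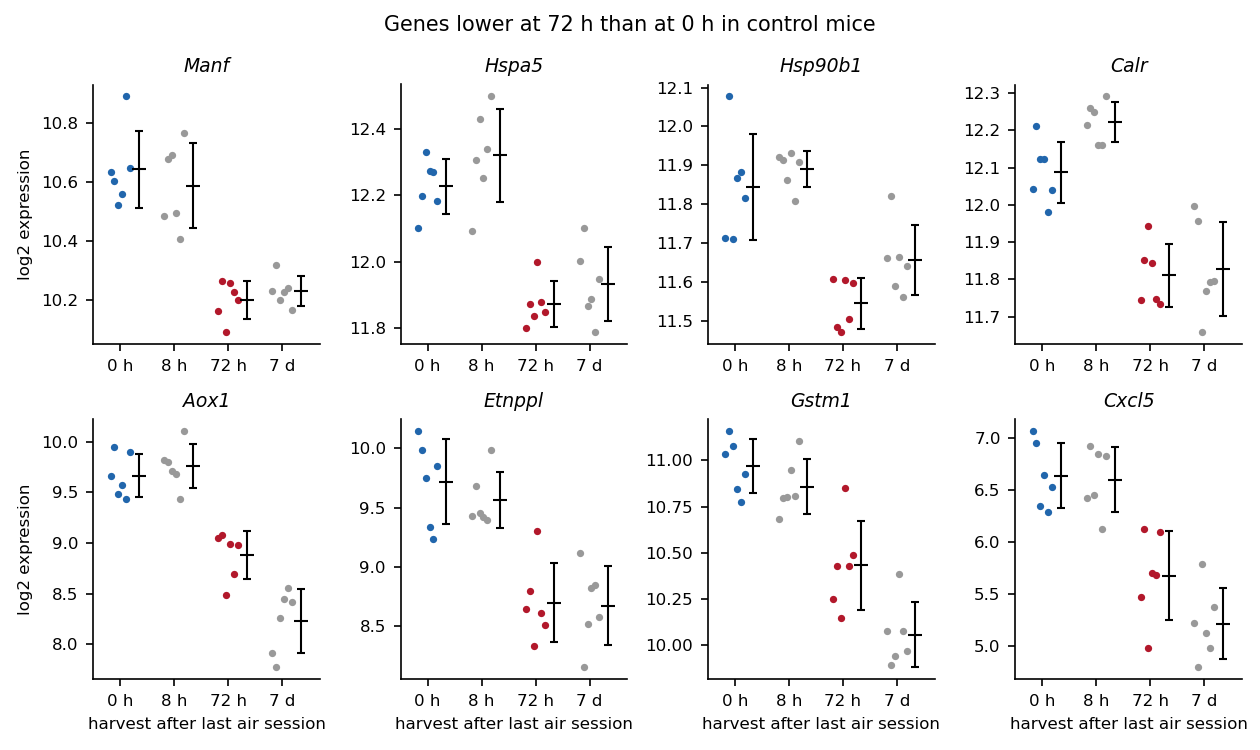
Log2 level by mouse of 8 genes called lower in Ctrl 72 h than in Ctrl 0 h mice, at the 4 control harvests, with 6 mice per harvest and the mean ± SD. For Manf the 72 h mice lie between 10.09 and 10.26, below the 10.52 to 10.89 of the 0 h mice.

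Among the enzymes whose genes were called lower were Aox1, Etnppl, Gstm1 and Scd1, which do not form a list. The list of 18 alcohol, aldehyde and acetate enzymes gave 0 calls in limma, with 2 higher and 0 lower at an unadjusted p under 0.05 and a median of 0.03. Aox1, an aldehyde oxidase, ranged from 9.43 to 9.95 (median 9.62) at 0 h and from 8.48 to 9.08 (median 8.98) at 72 h, and no 72 h mouse reached the lowest 0 h mouse. It differed by -0.79 (SE 0.12, adjusted p = 0.000337, 1.72-fold lower). Etnppl, an astrocyte-enriched enzyme that breaks down phosphoethanolamine, went from 9.24 to 10.14 (median 9.80) to 8.33 to 9.30 (median 8.63). The highest 72 h mouse passed the lowest 0 h mouse, and the difference was -1.02 (SE 0.16, adjusted p = 0.00043, 2.02-fold lower), while its dimmer probe set differed by -0.25 and was not called. Without the 3 Ctrl 0 h mice high in Shox2, the adjusted p was 0.0176 for Aox1 and 0.0558 for Etnppl. Gstm1, a glutathione S-transferase and a target of NRF2, ranged from 10.78 to 11.16 (median 10.98) and from 10.15 to 10.85 (median 10.43), with 1 of the 19 measured members of the NRF2 list called. The groups overlapped slightly, and Gstm1 differed by -0.54 (SE 0.10, adjusted p = 0.00153), but with the array sets as a block its adjusted p was 0.018. A further probe set of Gstm1 was called at -0.47, and others at -0.19 and -0.31 were not called. Scd1, which makes monounsaturated fatty acids, differed by -0.44 (adjusted p = 0.00948) and was not called without 9 of the 12 mice taken singly, with an adjusted p of up to 0.0481 without Ctrl 0 h mouse 2. The dimmer probe set of Scd1 differed by -0.18 and was not called. Scd1 was the 1 called member of 24 cholesterol and lipid synthesis genes, of which 5 were higher and 2 lower at an unadjusted p under 0.05. In the control mice killed at 7 d these enzymes also lay below the shared 0 h mice, Aox1 by -1.44 (adjusted p = 1.35e-10), Etnppl by -1.04 (adjusted p = 0.000224) and Gstm1 by -0.91 (adjusted p = 8.19e-08), whereas at 8 h their differences were 0.09, -0.15 and -0.11.

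A few chemokine and adhesion genes rose. Of 31 measured chemokines, cytokines and related genes, 3 were called higher and 0 lower, against 0.335% and 0.121% of all genes. The median of the list was 0.11, beside 0.05 over all genes. This list was chosen with earlier results known and does not hold Cxcl5, a chemokine that was called lower and is described after it. Ccl5 (RANTES), which attracts T cells and monocytes, showed the largest rise of any called gene, from 5.77 to 6.99 (median 6.14) at 0 h to 6.95 to 8.05 (median 7.92) at 72 h. The groups met at Ctrl 0 h mouse 20 with 6.99 and Ctrl 72 h mouse 6 with 6.95. The mean went from 6.21 ± 0.42 to 7.77 ± 0.41 (SD, n = 6 each), a difference of 1.56 (SE 0.25, adjusted p = 0.00043, 2.96-fold). At 8 h and 7 d Ccl5 differed from the same 0 h mice by 0.28 (adjusted p = 0.593) and 0.48 (adjusted p = 0.453). Ccl9, a chemokine of myeloid cells, ranged from 5.94 to 6.26 (median 6.11) and then from 6.50 to 6.70 (median 6.67), with no overlap. It differed by 0.53 (SE 0.11, adjusted p = 0.00407), but this rose to 0.0113, 0.012, 0.0111 and 0.01 without Ctrl 0 h mouse 2, Ctrl 0 h mouse 56, Ctrl 72 h mouse 44 and Ctrl 72 h mouse 68, each just over the threshold. The dimmer probe set of Ccl9 differed by 0.11 and was not called. Vcam1, the adhesion molecule by which leukocytes hold to endothelium, ranged from 8.09 to 8.85 (median 8.53) and from 8.85 to 9.26 (median 8.97), so that the groups met without overlapping. It differed by 0.48 (SE 0.11, adjusted p = 0.00926), a call that was lost without 11 of the 12 mice singly (up to 0.0393 without Ctrl 0 h mouse 56) and in the block fit (0.0575), and its other 2 probe sets differed by 0.11 and 0.16 without passing. With that block, or without Ctrl 0 h mouse 2, 1 member of the list was called.

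Tnfaip2, a gene induced by tumor necrosis factor, rose from 6.65 to 6.99 (median 6.80) to 7.24 to 7.65 (median 7.41), with no overlap. The difference was 0.61 (SE 0.09, adjusted p = 0.000308), whereas its 2 dimmer probe sets differed by 0.11 and -0.13 and were not called. Cxcl5, a chemokine that attracts neutrophils, moved the other way, from 6.29 to 7.07 (median 6.59) to 4.97 to 6.12 (median 5.69). It differed by -0.97 (SE 0.18, adjusted p = 0.00165), was lower by -1.43 in the control mice at 7 d against the same 0 h mice, and had an adjusted p of 0.0101 without Ctrl 0 h mouse 2 and of 0.0232 in the block fit. The interferon-stimulated genes and MHC class I genes gave 0 calls among 49 and 14 measured members in limma, with 2 and 1 higher at an unadjusted p under 0.05 and 0 lower.

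Genes of developmental signalling and of glial progenitors were among the higher calls. Fzd2, a Wnt receptor, ranged from 7.10 to 7.80 (median 7.43) at 0 h and from 7.98 to 8.18 (median 8.06) at 72 h, and every 72 h mouse exceeded every 0 h mouse. It differed by 0.65 (SE 0.09, adjusted p = 0.000129, 1.57-fold), while its 2 other probe sets differed by 0.35 and 0.18 and were not called. Gli3, a transcription factor of the hedgehog pathway, went from 7.12 to 7.41 (median 7.28) to 7.59 to 7.94 (median 7.78), with no overlap. The difference was 0.48 (SE 0.08, adjusted p = 0.00043), with a further called probe set at 0.42 and another, not called, at 0.15. Nrarp, a Notch target that dampens Notch signalling, ranged from 8.66 to 9.23 (median 8.98) and from 9.32 to 9.77 (median 9.50), again with no overlap. It differed by 0.57 (SE 0.10, adjusted p = 0.00124), with a further called probe set at 0.32, and had an adjusted p of 0.018 with the array sets as a block. Hes5, the Notch effector of neural stem cells and astrocytes, differed by 0.60 and did not pass (adjusted p = 0.0295). Nes, the intermediate filament of neural progenitors, differed by 0.33 (adjusted p = 0.00724) and was the 1 called member of 18 immature neuron and progenitor genes, lost without 11 of the 12 mice singly. Its other probe sets differed by 0.16 and 0.08 and were not called.

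Gpr17 marks oligodendrocyte precursors that have begun to differentiate. Its level was 8.02 to 8.68 (median 8.17) at 0 h and 8.79 to 9.28 (median 9.13) at 72 h, with no overlap. It rose by 0.80 (SE 0.10, adjusted p = 4.66e-06, 1.74-fold) and was already above the same 0 h mice at 8 h, by 0.49 (adjusted p = 0.00329), and remained so at 7 d, by 0.84 (adjusted p = 7.46e-07). It was the 1 called member of 10 oligodendrocyte precursor genes, whose median was 0.22. The precursor receptors Pdgfra and Cspg4 differed by 0.28 (adjusted p = 0.0506) and 0.30 (adjusted p = 0.116), and 5 of the 10 members were higher at an unadjusted p under 0.05, against 14.3% of all genes.

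The predicted gene Gm11627 had the smallest p of the higher genes. It went from 5.86 to 6.01 (median 5.91) at 0 h to 6.78 to 7.07 (median 6.95) at 72 h. The groups were separated by more than either group's own range, and the difference was 1.04 (SE 0.09, adjusted p = 6.17e-11, 2.05-fold). Against the same 0 h mice it was higher by 0.39 at 8 h (adjusted p = 0.0066) and by 1.14 at 7 d (adjusted p = 2.48e-12). Grin2c, which encodes the GluN2C subunit of the NMDA receptor, ranged from 8.37 to 8.68 (median 8.59) and from 9.03 to 9.30 (median 9.18), with no overlap. Its difference of 0.61 (SE 0.11, adjusted p = 0.00136) was the 1 call among 28 glutamate receptor and scaffold genes, and with array sets as a block the adjusted p became 0.0145.

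Further higher genes act in lipid turnover and signalling. Ephx2, the soluble epoxide hydrolase, ranged from 8.51 to 9.33 (median 8.94) and from 9.27 to 9.70 (median 9.50), with a slight overlap and a difference of 0.56 (adjusted p = 0.00117). Pla1a, a phosphatidylserine phospholipase, differed by 0.56 (adjusted p = 0.00117), with 35 of the 36 pairs of mice higher at 72 h, and by 0.53 at 8 h (adjusted p = 0.0018). Pbxip1, which binds PBX homeodomain proteins, ranged from 8.89 to 9.48 (median 9.38) and from 9.67 to 9.97 (median 9.83), with no overlap (difference 0.55, adjusted p = 0.0014). Those genes stayed called without each mouse but had adjusted p-values of 0.0185 to 0.0215 in the block fit. Less stable calls were Kcne4, an accessory subunit of potassium channels, at 0.55 (adjusted p = 0.00702, up to 0.0325 without Ctrl 0 h mouse 2), endothelin 3 (Edn3) at 0.52 (adjusted p = 0.00885, up to 0.034 without Ctrl 72 h mouse 44, with 3 other probe sets that were not called, the lowest at -0.16) and Rgs12, a regulator of G protein signalling, at 0.49 (adjusted p = 0.00589, up to 0.0292 without Ctrl 0 h mouse 2). The other probe sets of Rgs12 differed by 0.06 and 0.19 and were not called. Mgat5, which branches N-linked glycans, went from 9.25 to 9.42 (median 9.29) to 9.55 to 9.75 (median 9.62), with no overlap and a difference of 0.31 (adjusted p = 0.00124). Susd5, a protein with a sushi domain, differed by 0.35 (adjusted p = 0.00188), from 7.11 to 7.64 at 0 h to 7.70 to 7.86 at 72 h.

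**Figure D3:**
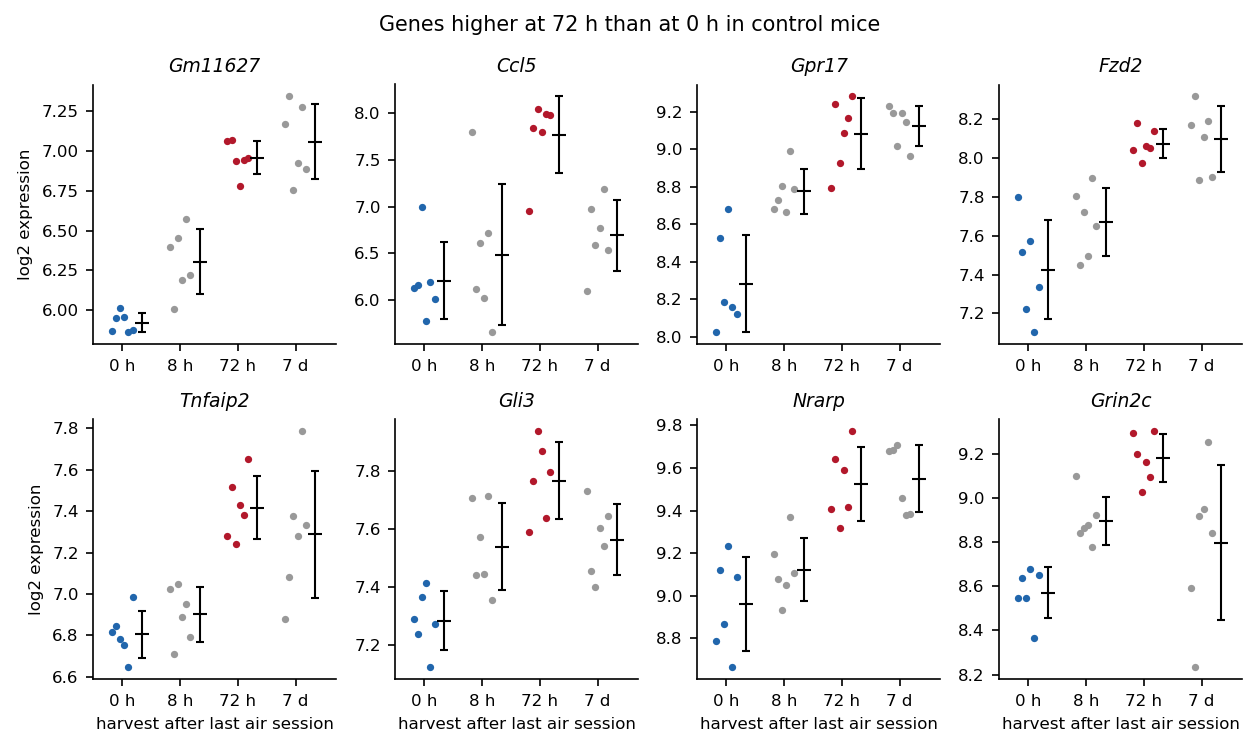
Log2 level by mouse of 8 genes called higher in Ctrl 72 h than in Ctrl 0 h mice, at the 4 control harvests, with 6 mice per harvest and the mean ± SD. Gm11627 lies at 6.78 to 7.07 at 72 h and 5.86 to 6.01 at 0 h, while Ccl5 is highest at 72 h.

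The circadian list gave 2 calls, both higher, among 24 measured genes, while 0.335% of all genes were called higher. Its median was 0.05, equal to that of all genes. Dbp, a clock output transcription factor with a strong daily wave, ranged from 11.25 to 11.61 (median 11.38) at 0 h and from 11.52 to 11.75 (median 11.65) at 72 h. The groups overlapped in 2 of the 36 pairs of mice. The difference was 0.24 (SE 0.05, adjusted p = 0.0084, 1.18-fold), and a further probe set of Dbp was called at 0.32 (adjusted p = 0.00298). Nr1d1 (REV-ERBα), a clock repressor, went from 6.77 to 7.19 (median 7.01) to 7.18 to 7.54 (median 7.34), with a difference of 0.32 (SE 0.07, adjusted p = 0.00899). Neither call was firm. Each was lost without 9 of the 12 mice singly, Dbp with an adjusted p of up to 0.0317 without Ctrl 0 h mouse 56 and Nr1d1 of up to 0.0268 without Ctrl 72 h mouse 24, and in the block fit they were 0.0531 and 0.0374. Without Ctrl 0 h mouse 2, 0 clock genes were called. Other members of the clock did not pass: Per1 differed by 0.20 (adjusted p = 0.133), Npas2 by 0.47 (adjusted p = 0.252), Nfil3 by -0.30 (adjusted p = 0.181) and Ciart, a repressor of Clock and Bmal1, by 0.13 (adjusted p = 0.436). Against the same 0 h mice, Dbp differed by -0.16 at 8 h (adjusted p = 0.0753) and by 0.29 at 7 d (adjusted p = 0.00218). The promoter windows of Dbp and Nr1d1 held neither the E-box CACGTG, present in 7.15% of promoters on either strand, nor the D-box TTATGNAA, present in 3.38%, nor the ROR element AGGTCA, present in 16.3%. The window of Per1 held all of these elements, that of Ciart held the E-box and that of Nfil3 the ROR element.

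Programs of activity, stress hormone and heat shock gave no call. Among 35 immediate early genes, 0 passed in limma and 2 were lower at an unadjusted p under 0.05. Fos, the AP-1 factor used as a marker of neuronal activity, nevertheless ranged from 8.43 to 9.27 (median 8.71) at 0 h and from 7.62 to 8.29 (median 7.85) at 72 h. The groups did not overlap, and the difference of -0.85 (SE 0.22) had an adjusted p of 0.0217. Among 33 targets of the glucocorticoid receptor, 0 passed, with 5 higher and 3 lower at an unadjusted p under 0.05, beside 14.3% and 2.9% of all genes. Heat shock genes gave 0 calls among 20 members, and oxidative phosphorylation subunits gave 0 among 51, with 9 higher at an unadjusted p under 0.05, a share near that of all genes. Splicing factors also gave 0 among 49, of which 11 were lower and 2 higher at an unadjusted p under 0.05, against 2.9% and 14.3% of all genes.

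No list of cell type markers gave more than 1 call. The microglia list gave 0 calls among 23 members, of which 13 were higher at an unadjusted p under 0.05 and 0 lower, against 14.3% and 2.9% of all genes. All 23 differences were above 0, as were 70.6% of those of all genes, with a median of 0.21, and the mean of the list ran from 8.42 to 8.81 (median 8.74) per mouse at 0 h and from 8.73 to 8.97 (median 8.87) at 72 h. The endothelial and pericyte list was similar, with 0 calls among 19, 11 higher at an unadjusted p under 0.05 (14.3% of all genes), a median of 0.28, and means of 8.37 to 9.01 (median 8.83) and 8.70 to 9.18 (median 9.02). The vascular receptor Kdr differed by 0.37 (adjusted p = 0.023) and the microglial gene Tmem119 by 0.33 (adjusted p = 0.0334). The medians of these lists were above 0, as were the changes of Ccl5, Ccl9 and Vcam1, but so was the median of all genes (0.05). The part of cell content in those calls was not tested. The dentate gyrus list had 1 of 14 members above 0 and a median of -0.26, the CA1 and CA3 list a median of 0.20 over 17 members and the GABA neuron list a median of 0.20 over 20, with 0 calls in each. In the thalamus and habenula list 0 of 18 passed, and 5 were lower and 0 higher at an unadjusted p under 0.05. As a whole the list did not fall, with 10 of the 18 differences above 0 and a median of 0.02. The list's mean per mouse was 7.14 to 8.24 (median 7.57) at 0 h, highest in mouse 2, and 7.28 to 7.56 (median 7.47) at 72 h. Shox2 itself differed by -1.41 (adjusted p = 0.0141) and Otx2 by -1.10 (adjusted p = 0.0208). The choroid plexus and ependyma list gave 0 calls among 17, with 1 member higher and 1 lower at an unadjusted p under 0.05 and a median of 0.07.

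**Figure D4:**
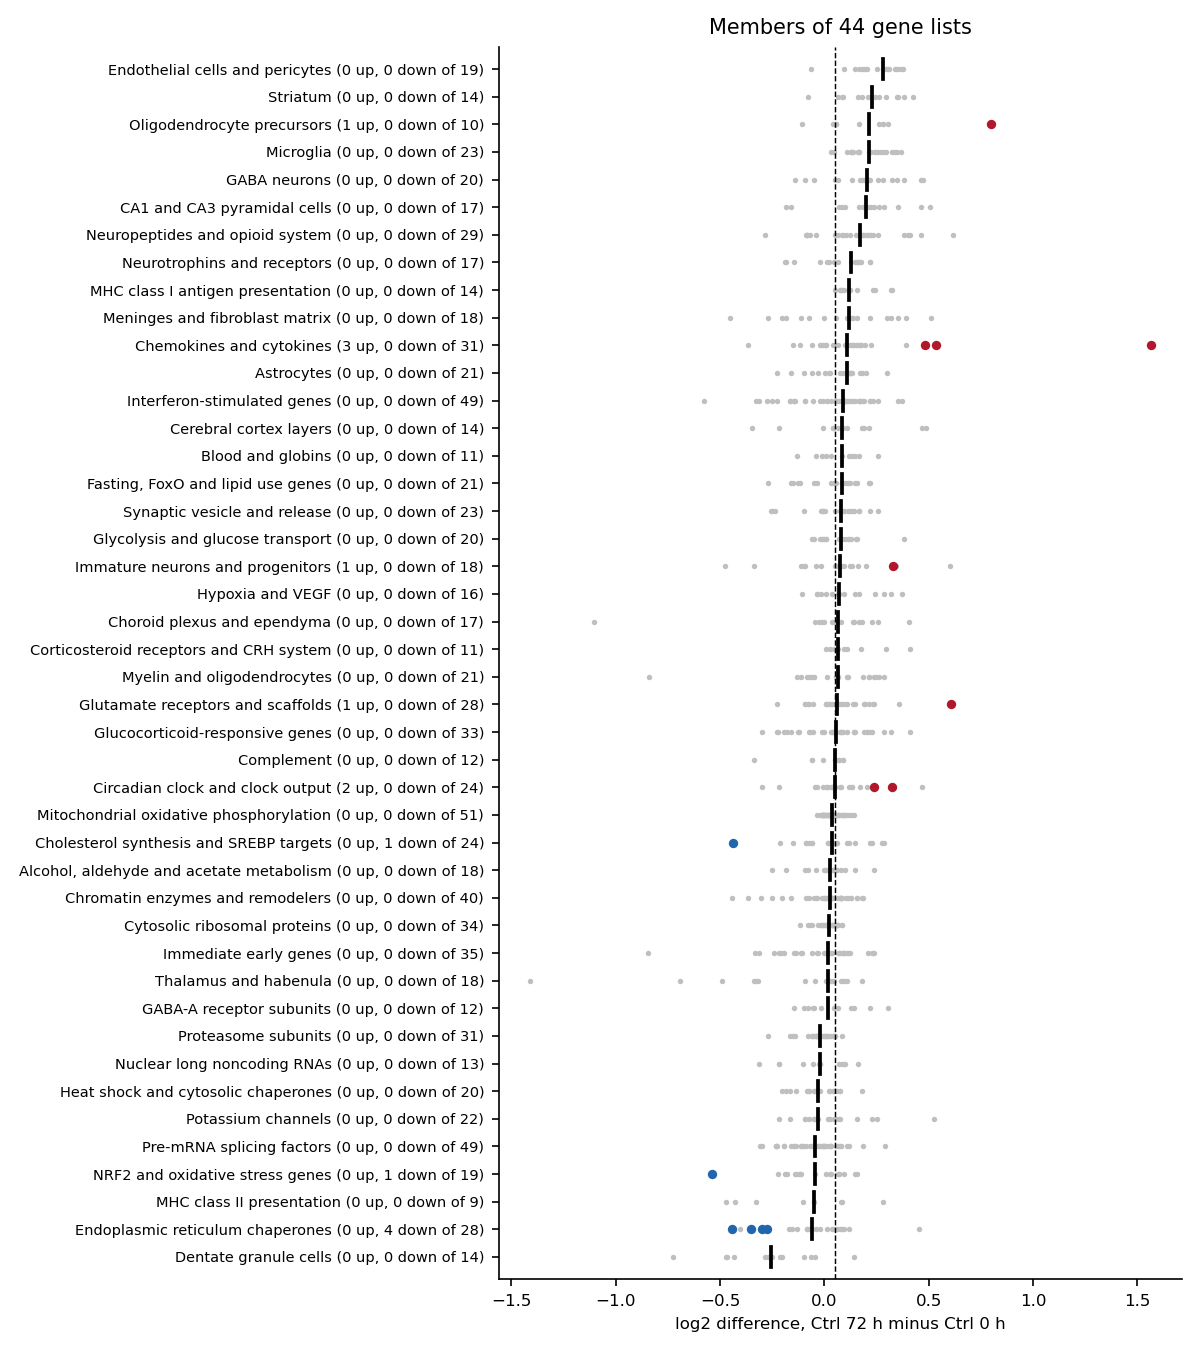
Log2 change from Ctrl 0 h to Ctrl 72 h (horizontal axis) of the measured members of 44 gene lists, 1 row per list, with a black bar at each list's median, red and blue points for members called higher and lower, and a dashed line at the 0.05 median of all genes. The ER chaperones have 4 blue points and the chemokines 3 red points, and most lists have none.

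Several other genes called lower at 72 h are predicted or poorly known transcripts. For 2610024D14Rik and Zbed6 the 8 h values are given beside those at 72 h, which share the 0 h mice. 2610024D14Rik ranged from 4.38 to 5.70 (median 5.20) at 0 h and from 3.63 to 4.47 (median 3.89) at 72 h, with 1 of the 36 pairs of mice higher at 72 h. It differed by -1.15 (SE 0.19, adjusted p = 0.0005), and by -1.04 at 8 h against the same 0 h mice. Its dimmer probe set, at a mean level of 3.08, differed by 0.03 at 72 h and was not called. Morc2b, a chromatin ATPase, ranged from 6.03 to 6.84 (median 6.41) and from 5.10 to 5.81 (median 5.41), without overlap, and fell 2.01-fold (adjusted p = 0.000308). Zbed6, a transposon-derived repressor that lies in an intron of Zc3h11a, ranged from 8.22 to 8.79 (median 8.47) and from 6.97 to 7.63 (median 7.52). Its difference of -1.09 (SE 0.25, adjusted p = 0.00849) beside -1.18 at 8 h and -0.11 at 7 d was lost without 11 of the 12 mice singly, with an adjusted p of up to 0.0339 without Ctrl 0 h mouse 2. Gm20199 differed by -0.86 (adjusted p = 0.000985), Otx2os1, transcribed beside Otx2, by -0.50 (adjusted p = 0.00302, and 0.0164, 0.0103 and 0.0107 without Ctrl 0 h mouse 2, Ctrl 72 h mouse 16 and Ctrl 72 h mouse 44) and the centriole gene Cep135 by -0.66 (adjusted p = 0.00681), the last lost without 9 of the 12 mice. Gm16794, Gm5481 and Ptar1 differed by -0.64, -0.46 and -0.46 and lost their calls without 7, 7 and 9 of the 12 mice. Another probe set of Gm16794 differed by -0.004 and was not called, and another of Ptar1 was called at -0.97.

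Most of the lower probe sets did not stand for a gene in the counts above. Of the 280, 152 were a further probe set of a gene (147 with the gene's main probe set not called), which is 54.3% against 37.2% of all probe sets. No symbol was given for 100, which is 35.7% against 20.3%, and 22 were the main probe set, which is 7.86% against 40.4%. Malat1, an abundant noncoding RNA of nuclear speckles, had 7 probe sets. Its main one ranged from 11.52 to 11.68 (median 11.62) at 0 h and from 11.30 to 11.50 (median 11.39) at 72 h, without overlap, and differed by -0.22 without passing (adjusted p = 0.0296). A dimmer one went from 9.59 ± 0.74 to 7.60 ± 0.31 (SD, n = 6 each), a difference of -1.99 (SE 0.36, adjusted p = 0.0014), and another called one differed by -1.33 (adjusted p = 0.0015). Averaged over the 7, Malat1 lay between 10.54 and 11.55 at 0 h and between 9.36 and 10.10 at 72 h, so the groups did not overlap. The probe sets of 1 gene thus differed by amounts from -0.12 to -1.99. Which part of the transcript or of the RNA preparation they follow was not tested. Among probe sets without a symbol, 1459649_at fell by 1.19 (adjusted p = 3.53e-06) and 1441494_at by 0.81 (adjusted p = 0.000154), and 1425471_x_at rose by 0.70 (adjusted p = 0.00124) and 1453976_at by 0.53 (adjusted p = 0.00148).

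The same interval in CIE mice, which share no array with the control mice, gave 510 called probe sets (1.13%) and 249 called genes (1.37%), 131 higher (0.72%) and 118 lower (0.649%). Of the 83 genes called in control mice, 12 were also called in CIE mice, all in the same direction, which is 14.5% of the control calls and 4.82% of the CIE calls. The 9 higher in both were Gm11627, Fzd2, Tnfaip2, Nrarp, Ephx2, Gli3, Rnase1, Mgat5 and Prex1, and the 3 lower in both were Etnppl, Aox1 and Manf. Manf fell by 0.38 in CIE mice (adjusted p = 8.38e-05) and Aox1 by 0.94 (adjusted p = 5.41e-06), while Gm11627 rose by 0.88 (adjusted p = 5.87e-09). Rnase1, a secreted ribonuclease, rose by 0.47 in control mice and 0.56 in CIE mice, and Prex1, an exchange factor for Rac, by 0.28 and 0.53. Neither control call was firm. Rnase1 had an adjusted p of up to 0.0146 without Ctrl 72 h mouse 6, and Prex1 of up to 0.0339 without Ctrl 0 h mouse 2. In the block fit they were 0.0246 and 0.067. In all, 70 of the 83 genes had the same sign in CIE mice, 50 of the 61 higher and 20 of the 22 lower genes. Over all genes, 57.5% had the same sign in both, 62.3% of those above 0 in control mice and 46% of those below 0. The ER chaperones Hspa5 and Hsp90b1 differed by -0.24 (adjusted p = 0.0354) and -0.18 (adjusted p = 0.0426) there and were not called.

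The difference between the change in CIE mice and the change in control mice was tested directly. It passed for 16 probe sets (0.0355%) and 5 genes (0.0275%), and 1 of the 83 genes called in control mice was among them. That gene was Dbp, which rose by 0.24 in control mice and differed by -0.21 in CIE mice (adjusted p = 0.0197), a difference of -0.45 (SE 0.08, adjusted p = 0.00359). In CIE mice Dbp ranged from 11.68 to 11.88 (median 11.76) at 0 h and from 11.43 to 11.71 (median 11.57) at 72 h. The other 4 were not called in control mice. Plin4, a lipid droplet protein, differed by 0.07 in control mice and -1.22 in CIE mice (difference -1.29, adjusted p = 0.00137). Txnip, the thioredoxin-binding regulator of glucose uptake, differed by 0.16 and -0.75 (difference -0.90, adjusted p = 0.00775), the Fc receptor Fcgr3 by 0.16 and -0.58 (difference -0.74, adjusted p = 0.00434) and the peptide-trimming aminopeptidase Erap1 by 0.16 and -0.48 (difference -0.64, adjusted p = 0.00641). With the array sets as a block, the difference passed for Plin4 (adjusted p = 0.00354), while Dbp had 0.0216, Txnip 0.0216, Fcgr3 0.024 and Erap1 0.0314. Gpr17 rose by 0.80 in control mice and differed by 0.17 in CIE mice (adjusted p = 0.41), and the test of that difference did not pass (adjusted p = 0.0311). Nor did it pass for Pla1a (adjusted p = 0.0363), Morc2b (adjusted p = 0.0481), Nr1d1 (adjusted p = 0.0266), Fos (adjusted p = 0.0144) or Ccl5 (adjusted p = 0.375), for which CIE mice differed by 0.74.

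**Figure D5:**
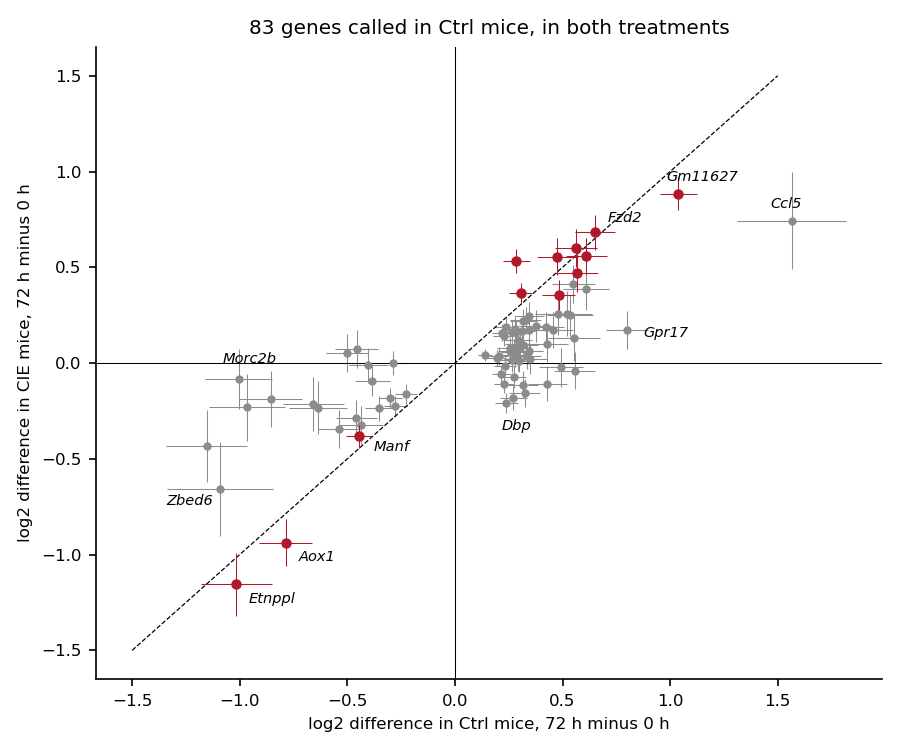
Log2 change from 0 h to 72 h in CIE mice (vertical axis) against that in control mice (horizontal axis) for the 83 genes called in control mice, with SE bars, red points for the 12 genes also called in CIE mice and a dashed line of equality. Of the 83 genes, 70 lie on the same side of 0 in both.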

How the data were processed

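Total RNA from the hippocampus of single mice was hybridised to Affymetrix mouse whole-genome arrays. The deposited values are on a log2 scale, and the authors obtained them by RMA (robust multi-array averaging): background correction and quantile normalization within each hybridization batch, quantile normalization over the arrays, and ComBat by batch. Their versions are not stated in the sources used here. All 48 arrays (6 mice in each of 8 groups) were fitted with limma 3.58.1 (R 4.3.3) on the 8 group means, with Benjamini-Hochberg adjustment over 45037 probe sets and a two-sided adjusted p of 0.01, and were used without further normalization or a filter. The script was tested on simulated data. P-values set each difference against the spread between mice, pooled over all 8 groups, CIE mice included. The number of arrays limits their precision. In limma's array weighting, more variable arrays weigh less. The weights were 0.353 to 0.875 for Ctrl 0 h arrays and 0.637 to 1.70 for Ctrl 72 h arrays.

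Platform annotation gave 34945 probe sets 1 symbol, 932 several and 9160 none. Each gene was represented by its brightest probe set. The members and lists were chosen with earlier results of these data known. Named genes were the up to 15 called with the highest and lowest change, the leading members of each list, clock genes, defining markers and genes whose change differed between CIE and Ctrl mice. Lists are described by counts and medians, with no set test. No label gave the hybridization batch. Arrays with at least 5 equal values (tolerance 1e-08) were joined, which gave 6 array sets holding 47 arrays, with 5 sets holding both Ctrl 0 h and Ctrl 72 h mice. Alternatives covered the samples fitted, array sets, normalization, weights, dim probe sets, threshold, probe set choice and each mouse left out.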

Additional observations from a re-analysis of the deposited data

Results flagged for a closer look

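Within the groups of 6 mice, 9 of 130 groups (65 genes) held a mouse whose gap to its nearest neighbour, as a share of the group's range, passed Dixon's critical value, and chance flags about 1 in 20 groups, a share near that seen. Ccl5 was set apart in both groups, by Ctrl 0 h mouse 20 (0.658) and Ctrl 72 h mouse 6 (0.770). At 0 h the mice apart were mouse 38 for Edn3 (0.804, level 6.34 against 5.83 to 5.93) and for Prox1 (0.760, level 8.46 against 9.76 to 10.17), and mouse 56 for Manf (0.663, level 10.89 against 10.52 to 10.65). At 72 h they were mouse 24 for Prox1 (0.673) and Otx2os1 (0.630), mouse 44 for Scd1 (0.627) and mouse 68 for Plin4 (0.664).

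The change from 0 h to 72 h differed between CIE and Ctrl mice, by limma's test of the difference, for Dbp (-0.45), Erap1 (-0.64), Plin4 (-1.29), Fcgr3 (-0.74) and Txnip (-0.90). Without 1 of the 24 mice of the 4 groups in turn, Plin4 stayed called (adjusted p of up to 0.0048), while Dbp lost the call without 4, Fcgr3 without 8, Erap1 without 12 and Txnip without 15 of them.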

How the results depend on the processing

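The called genes kept their direction in each setting that used the same probe set, and 0 results reversed. Another probe set was the most variable for 18 called genes, and 14 of these had the same sign in it. The counts moved. From 375 probe sets (95 higher, 280 lower) and 83 genes (61 higher, 22 lower), the fit of the 12 arrays alone gave 153 (10, 143) and 15 (9, 6), the 24 control arrays 23 (5, 18) and 7 (4, 3), the array sets as a block 42 (14, 28) and 17 (9, 8), array weights 137 (27, 110) and 32 (18, 14), and an adjusted p of 0.05 gave 1721 (693, 1028) and 466 (383, 83). Leaving out the 3 Ctrl 0 h mice high in Shox2, added after seeing the data, gave 20 (10, 10) and 10 (7, 3). Leaving out dim probe sets gave 107 (62, 45) and 51 genes with 8 lower, and the most variable probe set of each gene gave 190 genes with 134 lower. Quantile normalization gave 379, median centring 360 and a trended robust fit 334 probe sets. Leaving out 1 mouse gave 79 to 871 probe sets (27 to 284 higher, 52 to 587 lower) and 28 to 200 genes (17 to 155 higher, 11 to 45 lower), lowest without Ctrl 0 h mouse 2 and highest without Ctrl 0 h mouse 38. With the array sets as a block, Ctrl 8 h minus 0 h fell from 505 (115, 390) to 19 (4, 15), Ctrl 7 d from 95 (37, 58) to 44 (13, 31), CIE 72 h from 510 (295, 215) to 286 (162, 124), and the difference between CIE and Ctrl mice from 16 (5, 11) to 1 (0, 1). That difference gave 5 to 48 (2 to 16 higher, 3 to 32 lower) without 1 mouse. The cause of these shifts was not tested. The block fit also leaves out Ctrl 0 h mouse 2, which was in no array set. No paired analysis was possible because no mouse number is shared between groups, and the matched analysis within array sets is the block fit.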
